A study of Rattus norvegicus with 32 samples.

Results

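The genes described here encode DNA repair and translesion synthesis proteins. A list of 51 gene names was matched to the gene names that the scanner files give for the probes on the array, and 44 of them were found among 26583 gene names in all. The other names, Xrcc3, Fancg, Ddb2, Ercc2, Ddb1, Msh6 and Msh3, matched no probe by name and were not analysed here. The rule uses gene names alone, but the list was proposed with earlier results of these data known. By role, the 44 genes hold 6 of translesion synthesis (Rev3l, Rev1, Mad2l2, Polh, Polk, Rad18), 11 of homologous recombination (Brca1, Brca2, Bard1, Palb2, Brip1, Rad51ap1, Rad52, Rad54l, Xrcc2, Blm, Exo1), 7 of break sensing and checkpoint signalling (Atm, Atr, Chek1, Chek2, Mre11a, Rad50, Nbn), 5 of end joining (Xrcc4, Xrcc5, Xrcc6, Prkdc, Lig4), 7 of base excision and single-strand break repair (Parp1, Parp2, Xrcc1, Lig3, Ogg1, Mutyh, Apex1), 4 of nucleotide excision repair (Ercc1, Ercc3, Xpa, Xpc), 3 of the Fanconi pathway (Fanca, Fancc, Fancd2) and 1 of mismatch repair (Pms2).

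The cells were C6, a rat glioma line. Control cells received no treatment, Ang II cells received Angiotensin II at 0.1 µM, and the other two groups received the same Ang II dose after 30 min of pre-treatment with Losartan (Ang II+Los) or PD123319 (Ang II+PD123319), each at 10 µM. Losartan blocks the AT1 receptor of Ang II and PD123319 blocks the AT2 receptor. Cells of every group were grown to confluence in medium with serum, RNA was taken at 3 h and at 6 h, and each of the 8 groups had 4 replicates on 4 single-dye arrays, 32 arrays in all. The Ang II x Control comparison addresses the response to Ang II. Ang II+Los x Ang II, the Losartan comparison, addresses the part of the AT1 receptor in it, and Ang II+PD123319 x Ang II, the PD123319 comparison, that of the AT2 receptor. No group received an antagonist without Ang II. An effect of the antagonist itself therefore cannot be told apart from a block of the response to Ang II.

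DNA damage is met by several systems that work side by side. Excision systems cut out a damaged base or a stretch of a strand, recombination and end joining close double-strand breaks, and checkpoint kinases hold the cell cycle while this happens. In translesion synthesis, specialised polymerases copy past a lesion that stops the replicative polymerases, and polymerase zeta, built around the catalytic subunit Rev3l, extends the strand beyond it. In gliomas these systems are known for their part in the response to alkylating drugs and radiation, and many of their genes are transcribed mainly in cells that are about to replicate their DNA.

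The 44 genes were read by 48 probes of 60 bases each, with a GC content of 35.0% to 55.0%, and 4 genes (Rev3l, Polk, Bard1 and Rad51ap1) had 2 probes. Coordinates are on rn4, per the scanner files, and whether a probe lies in an exon of the coding part was not analysed here. The probes that the results below turn on are shown for 3 genes, in lower case throughout. The Brca1 probe, on the minus strand at chr10:90519749-90520715, spans 967 bases of the genome and so crosses a gap. Rev3l is shown by the probe at chr20:44030830-44030889 on the plus strand, one of a pair that gave unlike values. Both probes of Polk, on the minus strand of chromosome 2, are shown because they also gave unlike values, the first at chr2:26954363-26954422 and the other at chr2:26952021-26952080.
Brca1 A_44_P294650: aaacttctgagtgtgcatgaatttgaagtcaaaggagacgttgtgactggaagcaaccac
Rev3l A_43_P21256: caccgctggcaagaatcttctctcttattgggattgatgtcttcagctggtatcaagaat
Polk A_64_P125486: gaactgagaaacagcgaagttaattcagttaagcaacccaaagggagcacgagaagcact
Polk A_64_P162875: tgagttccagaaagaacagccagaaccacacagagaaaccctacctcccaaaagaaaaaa

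RefSeq sequences of the 250 bases before the transcription start, on build GRCr8, were found for 38 of the 44 genes, the others being Blm, Chek2, Nbn, Prkdc, Xpa and Xrcc2. They were searched on both strands for the core of the E2F motif (GCGGGAA), the CCAAT box (CCAAT), the GC box (GGGCGG) and the core of the CHR element (TTTGAA). None of these contains another, but matches of GCGGGAA and GGGCGG can share bases. GCGGGAA was held by 8 of the 38 genes (21.1%) and by 3.36% of all 33469 such sequences, and GGGCGG by 26 (68.4%) against 30.5%. CCAAT was held by 14 (36.8%) against 34%, and TTTGAA by 4 (10.5%) against 16.2%. A gene was counted if any of its sequences held the letters, while the 33469 sequences were each counted on their own. The shares are thus of unlike units, which can raise that of the repair genes. The genes with GCGGGAA were Atm, Bard1, Brca1, Chek1, Fancc, Rad50, Rev3l and Xrcc4. Of the 8 genes up-regulated with Ang II at 6 h that had a sequence, 3 held GCGGGAA and 3 held CCAAT. A match of letters is a description of the sequence and no binding site. The windows of 3 genes that were higher with Ang II at 6 h and hold either motif follow, while those of Brip1 and Rad18, also higher, hold neither. GCGGGAA and CCAAT on either strand are in capitals, and all are from minus strands: Brca1 at chr10:86977582-86977831, Chek1 at chr8:44629844-44630093 and Rad51ap1 at chr4:161458560-161458809.
Brca1: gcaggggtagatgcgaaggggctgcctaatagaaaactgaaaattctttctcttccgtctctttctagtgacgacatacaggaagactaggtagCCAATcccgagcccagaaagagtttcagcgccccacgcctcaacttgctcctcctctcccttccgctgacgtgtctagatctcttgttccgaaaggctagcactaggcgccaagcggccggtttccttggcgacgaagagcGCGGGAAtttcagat
Chek1: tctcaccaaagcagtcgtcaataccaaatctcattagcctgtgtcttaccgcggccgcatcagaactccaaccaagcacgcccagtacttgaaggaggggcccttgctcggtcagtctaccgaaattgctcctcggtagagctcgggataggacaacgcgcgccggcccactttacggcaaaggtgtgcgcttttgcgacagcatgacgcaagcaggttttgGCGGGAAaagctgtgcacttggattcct
Rad51ap1: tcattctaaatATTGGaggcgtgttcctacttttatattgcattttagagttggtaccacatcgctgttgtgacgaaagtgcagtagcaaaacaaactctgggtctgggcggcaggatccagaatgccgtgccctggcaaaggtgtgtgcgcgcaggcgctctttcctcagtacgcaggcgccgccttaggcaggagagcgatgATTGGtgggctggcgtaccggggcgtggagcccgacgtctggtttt
The Brca1 window holds GCGGGAA 15 bases before the start and CCAAT 156 bases before it, the Chek1 window GCGGGAA 28 bases before the start, and the Rad51ap1 window CCAAT on the other strand at 239 and 46 bases.

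All values are normalised log2 signals. The arrays of a time interval were normalised together, so levels at 3 h and 6 h are not comparable, nor are levels of different genes. To be tested at a time interval, a gene needed a probe whose signal was well above background in every replicate of some group. This left 38 of the 44 genes at 3 h and 42 at 6 h, and 34 were above background on all 32 arrays. Xrcc2, a homologous recombination protein, was above background on 0 of 16 arrays at 3 h and 2 of 16 at 6 h, and Atr, the kinase of stalled replication forks, on 0 and 7, and neither was tested. Brca1 was above background on 6 of 16 arrays at 3 h, Exo1 on 2, Atm on 1 and Fancd2 on 12, and these were tested at 6 h alone. On no array was a spot of these genes saturated. The scanner software was set differently for the time intervals, with a well-above-background setting of 2.6 at 3 h and 13 at 6 h, so counts of arrays above background are not comparable between them. Over whole arrays, 55.9% to 64.7% of the 42877 spots were well above background at 3 h and 64.2% to 79.8% at 6 h, and the number of arrays limits the precision. Of 12 glial markers 8 were above background on all 32 arrays, among them S100b, Vim and Nes, while Gfap was so on 2 arrays, and Fabp7 and Slc1a3 on none. Microglial Aif1, Cd68, Itgam and Cx3cr1 and neuronal Snap25, Tubb3 and Map2 were above background on all 32, as were oligodendrocyte Mag and endothelial Vwf. Leukocyte Ptprc, neuronal Syt1 and Slc17a7 and endothelial Pecam1 and Tek were so on none. The other markers looked up in these lists and on the array were above background on part of the arrays.

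A log2 fold change (log2FC) is the group named first minus the other, a pair is the difference between 2 arrays with the same replicate number, and a gene is called up- or down-regulated at an unadjusted p under 0.05 in limma with the replicate number as a block. After Benjamini-Hochberg adjustment over all genes tested, limma gave 0 genes under 0.05 in every comparison, so that no gene named here passed it. The replicate number is the slide, and on each slide Control, Ang II, Ang II+Los and Ang II+PD123319 lay at positions 1, 2, 3 and 4, so that treatment and position cannot be told apart. Nothing in the labels says that replicates came from separate cultures. The limma p-values and standard errors (SE) measure the spread between these samples that is left after group and slide. That spread is pooled over all arrays fitted, moderated across genes, and may be technical, while n is the number of arrays per group. In such samples fewer cells of a type and less RNA per cell cannot be told apart. Whether the arrays of 2 groups overlap is given per gene as a description alone. The share of all genes without overlap is not reported here.

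At 3 h of Ang II, 8 of 38 repair genes were called, 6 up-regulated and 2 down-regulated. The share of 21.1% stands beside 12.7% of all 13627 genes tested, the 6 up-regulated genes (15.8%) beside 5.35%, and the down-regulated genes beside 7.37%. The up-regulated genes were Brip1, Rad18, Rev3l, Blm, Rad51ap1 and Fancc, which act in translesion synthesis, recombination and the Fanconi pathway, and the down-regulated genes were Rad52 and Mutyh. The median log2FC of the 38 genes was 0.10, against 0.00 for all genes, and 28 lay above 0. Within scan 1 (replicates 1 and 2) the median was 0.10 and within scan 2 (replicates 3 and 4) it was 0.07.

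Rad52, a mediator of strand annealing, had the lowest p at this time interval. Its log2 signals in replicates 1 to 4 were 6.12, 7.19, 7.44 and 6.93 in Control and 6.02, 5.99, 7.20 and 6.11 with Ang II. All 4 pairs were lower with Ang II, replicates 2 and 4 by the most, and the groups overlapped because replicate 3 was high in both. The log2FC was -0.59 (SE 0.163, n = 4; limma adjusted p = 0.322). With Ang II+Los the signals were 6.16, 6.34, 7.10 and 6.10 and with Ang II+PD123319 they were 6.12, 6.44, 7.29 and 6.21, close to those with Ang II alone.

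Rad18, the ubiquitin ligase that marks PCNA and so opens the way for translesion polymerases, gave 8.84, 7.92, 7.14 and 8.09 in Control and 8.91, 8.48, 7.33 and 8.49 with Ang II. Each pair was higher with Ang II and the groups overlapped, with a log2FC of 0.31 (SE 0.112, n = 4; limma adjusted p = 0.345). Blm, a helicase that dissolves recombination intermediates, gave 8.51, 7.55, 6.45 and 7.58 in Control and 8.54, 8.37, 6.48 and 8.19 with Ang II. Replicates 1 and 3 of Blm differed by 0.03 each and replicates 2 and 4 by 0.82 and 0.60, for a log2FC of 0.37 (SE 0.141, n = 4; limma adjusted p = 0.351). Rad51ap1, an accessory protein of strand pairing in recombination, gave 8.90, 7.41, 6.28 and 7.57 in Control and 8.90, 8.42, 6.52 and 8.38 with Ang II. The difference lay again mainly in replicates 2 and 4, the groups overlapped, and the log2FC was 0.52 (SE 0.201, n = 4; limma adjusted p = 0.352).

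Rev3l gave 6.22, 6.15, 6.21 and 6.19 in Control and 6.21, 7.17, 6.42 and 6.57 with Ang II at 3 h. The Control arrays were nearly level, replicate 1 with Ang II lay within them and the other replicates above them. The log2FC was 0.40 (SE 0.152, n = 4; limma adjusted p = 0.351). The probes of Rev3l, whose starts are 11358 bases apart, were not alike. The one shown above had a log2FC of 0.57 (limma adjusted p = 0.352), which was called, and the other, A_64_P020516, a log2FC of 0.23 (0.619), which was not.

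Of the other called genes, Brip1, a helicase that binds Brca1, had a log2FC of 0.48 and was higher in 3 of 4 pairs. Fancc, of the Fanconi core complex, had 0.36 and was higher in 4 of 4. Mutyh, a glycosylase that removes adenine mispaired with oxidised guanine, had -0.36, with 7.45, 7.54, 7.94 and 7.44 in Control and 7.16, 7.08, 7.40 and 7.31 with Ang II. Its groups did not overlap. The 30 genes not called ran from -0.25 (Xrcc6) to 0.33 (Chek1). None of the 5 end joining, 4 nucleotide excision or 5 sensing and checkpoint genes tested was called.

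The 3 h calls rested on particular slides. In all 6 up-regulated genes the 2 largest pair differences were those of replicates 2 and 4, as in 426 of 724 up-regulated genes in all (58.8%), a pattern looked at after the values were seen. Without replicate 2, 1 of the 8 calls was left, Rad52, with a log2FC of -0.39, and 913 of all 13627 genes were called. Without replicate 4, 4 of the 38 genes and 784 of all genes were called. Without the replicate block 1 of 38 was called, and 359 of all genes.

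**Figure D1:**
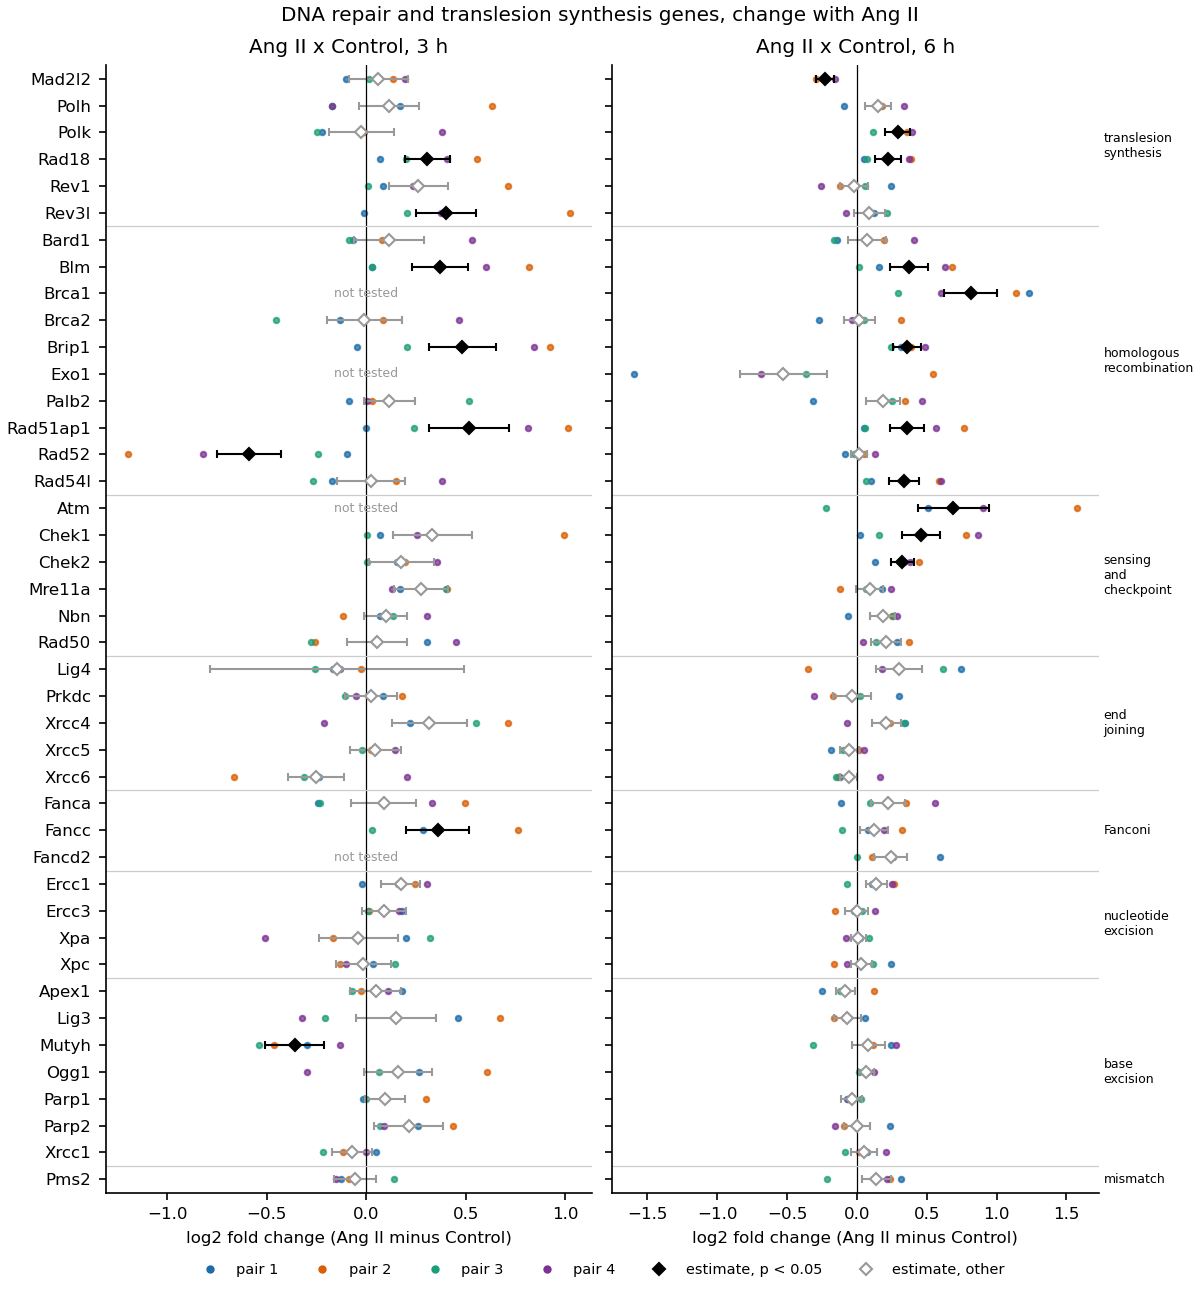
Log2 fold change of each repair gene in Ang II x Control, grouped by role, at 3 h (38 genes) and 6 h (42 genes). Diamonds are the limma log2 fold change with its standard error, filled where the unadjusted p is under 0.05, and the small points are the 4 pairs, coloured by replicate. The points of replicates 2 and 4 lie farthest to the right in all 6 genes up-regulated at 3 h.

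At 6 h of Ang II, 11 of 42 repair genes were called, 10 up-regulated and 1 down-regulated. The share was 26.2%, beside 21.5% of all 16444 genes, of which 10.6% were up-regulated and 10.8% down-regulated. Recombination and checkpoint genes made up most of them. In homologous recombination 5 of 10 genes were up-regulated (Brca1, Brip1, Rad54l, Rad51ap1 and Blm; median of the 10, 0.26) and in sensing and checkpoint signalling 3 of 6 (Chek2, Chek1 and Atm; median 0.27). In translesion synthesis Polk and Rad18 were up-regulated and Mad2l2 was down-regulated. None of the 7 base excision, 5 end joining, 4 nucleotide excision, 3 Fanconi genes and 1 mismatch repair gene was called, with medians of 0.00, -0.04, 0.02 and 0.22 for the first 4 of these roles. Over the 42 genes the median was 0.11, against -0.01 for all genes, 32 lay above 0, and within scan 3 (replicates 1 to 3) the median was 0.09. Scan 4 held replicate 4 alone.

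Brca1, which acts in recombination at breaks and in the checkpoint, gave 3.94, 3.05, 4.98 and 4.32 in Control and 5.18, 4.19, 5.28 and 4.92 with Ang II. All 4 pairs were higher with Ang II, by 1.23, 1.14, 0.29 and 0.60, although the groups overlapped. The log2FC was 0.82 (SE 0.190, n = 4; limma adjusted p = 0.0826), the lowest p among the repair genes in any comparison. Its signal was dim, above background on 3 of the 4 Control arrays and on the other 12 arrays at 6 h. Brca1 thus met the filter only through the groups given Ang II, where it was higher. Its entry to the test was therefore not independent of the difference tested. With Ang II+Los it gave 5.17, 4.57, 5.10 and 4.82 and with Ang II+PD123319 4.80, 3.76, 5.36 and 5.01, and neither differed from Ang II by the test.

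Chek2, a checkpoint kinase activated by Atm, gave 6.01, 5.18, 5.96 and 5.60 in Control and 6.15, 5.62, 6.29 and 5.99 with Ang II, with all 4 pairs higher. The log2FC was 0.32 (SE 0.0825, n = 4; limma adjusted p = 0.0974). Brip1 gave 8.26, 7.00, 8.44 and 7.49 in Control and 8.58, 7.39, 8.69 and 7.98 with Ang II, a log2FC of 0.36 (SE 0.10, n = 4; limma adjusted p = 0.109). The pairs ran from 0.13 to 0.44 in Chek2 and from 0.25 to 0.49 in Brip1, all higher with Ang II, and the groups overlapped in both genes. Mad2l2, the small subunit that joins Rev3l in polymerase zeta, moved the other way, with 5.17, 5.57, 5.48 and 5.68 in Control and 4.94, 5.28, 5.24 and 5.52 with Ang II. All 4 pairs were lower with Ang II, for a log2FC of -0.23 (SE 0.0652, n = 4; limma adjusted p = 0.115).

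Among the other called genes, Chek1, the kinase that slows replication under stress, had a log2FC of 0.46, with pairs of 0.02, 0.78, 0.16 and 0.87. Rad54l, a motor protein of recombination, had 0.34, Rad51ap1 0.36, Blm 0.37 and Rad18 0.22, each with 4 of 4 pairs higher. Atm, the kinase that responds to double-strand breaks, had 0.69, with 3 of 4 pairs higher, the largest 1.57 in replicate 2. Polk, a translesion polymerase, had 0.29 as the mean of its probes, but A_64_P125486 had 0.59 (limma adjusted p = 0.0848) and A_64_P162875 had -0.0067 (0.980). The 2 probes of Rad51ap1 had 0.34 (A_64_P084619) and 0.38 (A_44_P623426). At 3 h only A_64_P162875 of Polk (-0.025) and A_44_P623426 of Rad51ap1 (0.52) were kept. Of the 31 genes not called, the lowest was Exo1 at -0.53 (limma adjusted p = 0.344), an exonuclease above background on 12 of 16 arrays, and the highest Lig4 at 0.30. Exo1 met the filter only through Control, the group where its mean was highest.

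Rev3l was not called at 6 h. It gave 6.36, 6.58, 6.63 and 6.90 in Control and 6.49, 6.66, 6.85 and 6.83 with Ang II. The groups overlapped, replicate 4 was lower with Ang II, and the log2FC was 0.09 (SE 0.111, n = 4; limma adjusted p = 0.687). The probe shown above had 0.28 (limma adjusted p = 0.349) and A_64_P020516 had -0.10 (0.507), and neither was called.

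In 9 of the 10 up-regulated genes at 6 h the 2 largest pairs were again replicates 2 and 4, as in 730 of 1742 up-regulated genes in all (41.9%). Control replicates 2 and 4 were the 2 lowest Control arrays in 7 of the 10 genes, as in 763 of the 1742 (43.8%). Brca1, Chek2, Brip1, Mad2l2 and Polk passed with any replicate left out. Without replicate 4, 6 of the 42 genes were called, with 1875 of all 16444 genes, and without replicate 2, 7 were, with 2046. Without replicate 1, 13 were called, with 3184 of all genes, and without replicate 3, 15 were, with 3820. Without the replicate block none of the 42 passed in limma, with 663 of all genes at an unadjusted p under 0.05. The paired test gene by gene gave 5, and its count over all genes is not reported here.

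**Figure D2:**
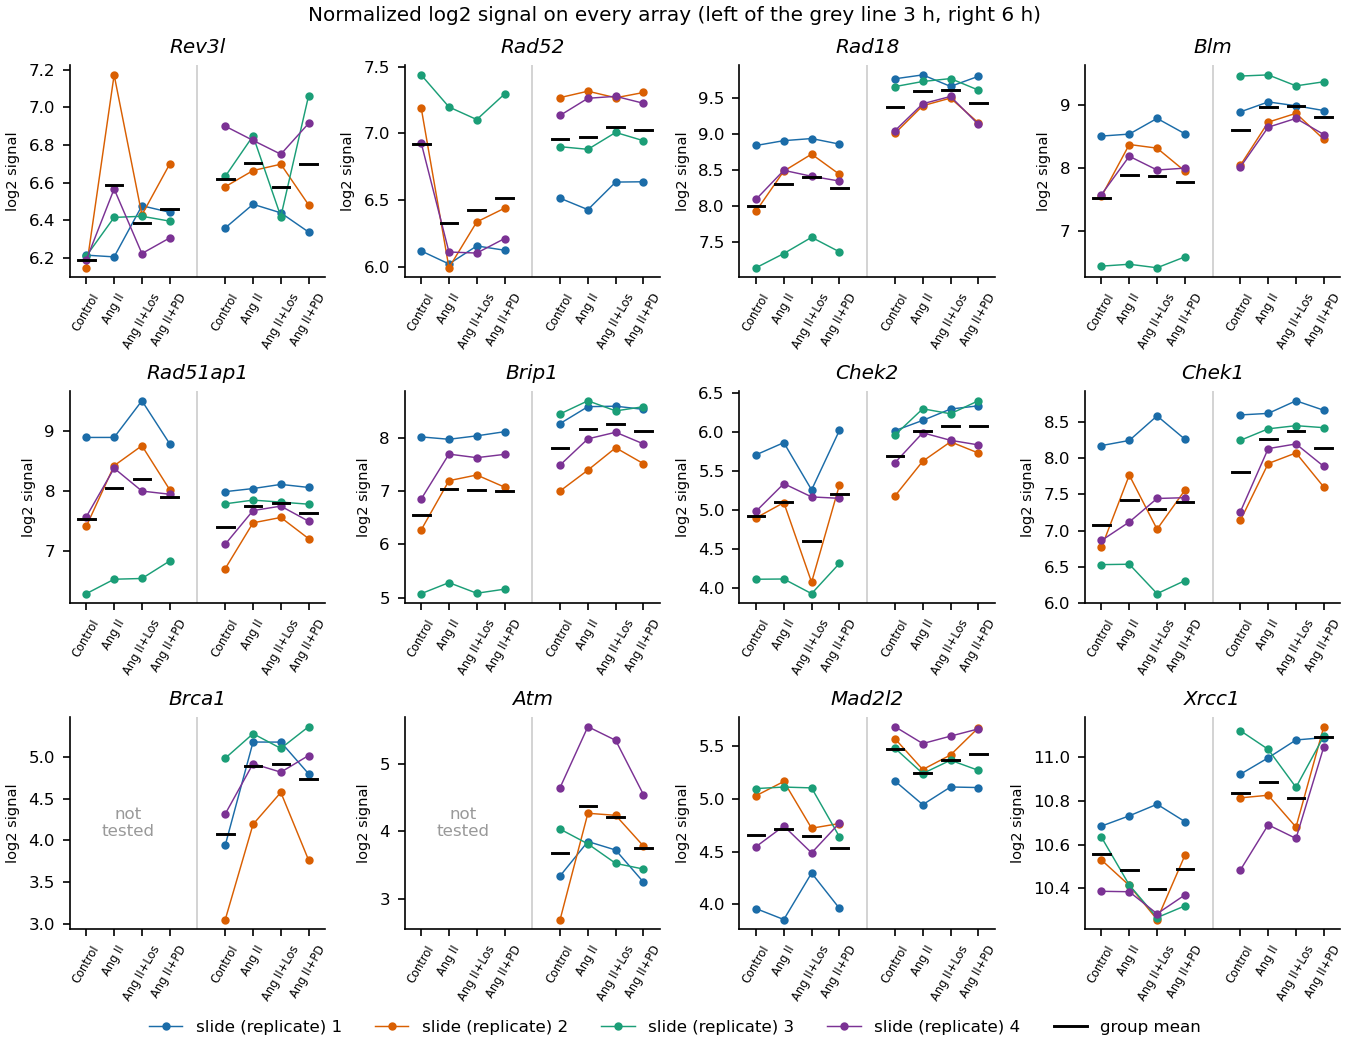
Normalised log2 signal of 12 repair genes on every array, by group, at 3 h and 6 h. Each line joins the 4 arrays of a slide and the black bars are group means. Brca1 and Atm are shown for 6 h, where they were tested. The spread between slides differs by gene, as in Control at 3 h, where Rad51ap1 ran from 6.28 to 8.90 and Rev3l from 6.15 to 6.22.

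In Ang II x Control, replication genes and part of the repair genes were both higher with Ang II. Of 19 S phase genes tested at 3 h (Mcm genes, Gins2, Cdc6 and the like), 11 were up-regulated in Ang II x Control and all 19 lay above 0, with a median of 0.38. At 6 h 15 of 20 were up-regulated, with all 20 above 0 and a median of 0.43. Their mean signal, centred within the time interval, ran from -1.68 to 0.95 in Control and -1.35 to 1.07 with Ang II at 3 h, and from -1.04 to 0.28 and -0.33 to 0.44 at 6 h. The pair medians of the S phase genes were 0.12, 0.81, 0.20 and 0.54 at 3 h and 0.17, 0.82, 0.07 and 0.71 at 6 h for replicates 1 to 4, and those of the repair genes 0.03, 0.17, 0.01 and 0.18 and then 0.08, 0.19, 0.05 and 0.20. Of mitosis genes 5 of 19 were up-regulated at 3 h (median 0.17) and 7 of 20 at 6 h (median 0.15). In the Losartan comparison at 3 h, 5 of 19 S phase genes (26.3%) were down-regulated, beside 10.9% of all genes called in either direction. Their median was -0.17, beside -0.03 for the repair genes. In the PD123319 comparison at 6 h limma called 0 of 20, beside 6.37% of all genes. Of these 20, 19 lay below 0 (median -0.13, repair genes -0.04). The S phase medians were 0.02 in the Losartan comparison at 6 h and -0.04 in the PD123319 comparison at 3 h. The part of the cell cycle in the repair gene values was not tested.

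**Figure D3:**
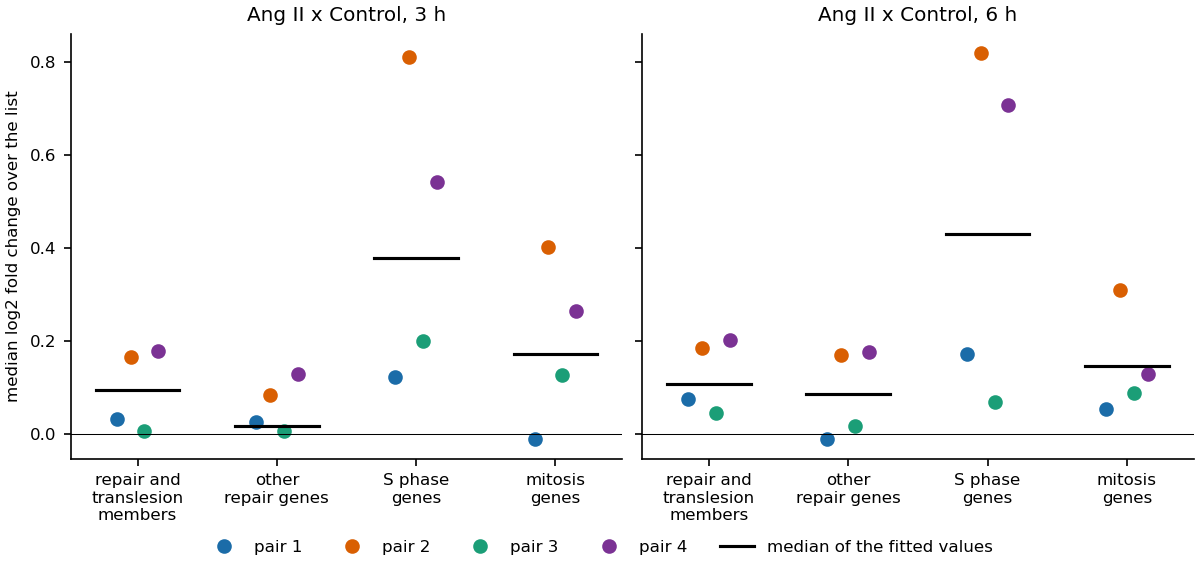
Median log2 fold change of Ang II x Control in each of the 4 pairs, for the repair genes, the other repair genes, the S phase genes and the mitosis genes, at 3 h and 6 h. In the S phase genes the pairs of replicates 2 and 4 stood at 0.81 and 0.54 at 3 h and at 0.82 and 0.71 at 6 h, above those of replicates 1 and 3. In the repair genes replicates 2 and 4 also stood above replicates 1 and 3, with 0.17 and 0.18 at 3 h and 0.19 and 0.20 at 6 h.

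Of the 38 repair genes tested at both time intervals, 4 were up-regulated at both, namely Brip1, Rad18, Blm and Rad51ap1. That is 10.5% of them, beside 1.69% of 13614 genes tested at both. For Rad51ap1 and Polk the 3 h value came from a single probe and the 6 h value from the mean of both. The Polk probe kept at both was near 0 at each, so its call at 6 h rests on the other probe. They make up 50% of the 8 called at 3 h and 44.4% of the 9 of these 38 called at 6 h, and over all genes 477 calls had the same direction at both, 27.5% and 16.2%. In 21 of the 38 genes (55.3%) the sign was the same at both time intervals, beside 64.5% of all genes. The difference between the time intervals was tested directly, and 2 of 38 genes differed at an unadjusted p under 0.05, beside 7.18% of all genes. They were Rad52, whose log2FC was 0.61 higher at 6 h than at 3 h (limma adjusted p = 0.666), and Mutyh, with 0.44 (limma adjusted p = 0.675). Rad52, down-regulated at 3 h, had a log2FC of 0.02 at 6 h.

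**Figure D4:**
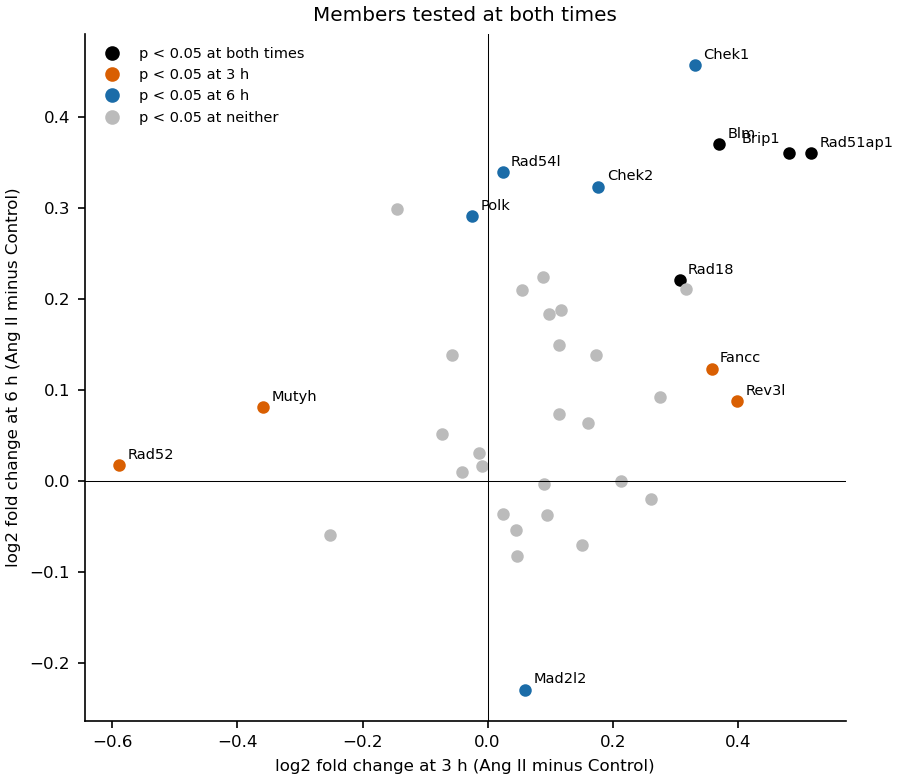
Log2 fold change in Ang II x Control at 6 h against that at 3 h for the 38 repair genes tested at both, coloured by the time interval at which they were called. Brip1, Rad18, Blm and Rad51ap1 lie in the upper right and were called at both, and Rad52 lies far to the left at 0.02 on the 6 h axis. Polk and Rad51ap1 are shown by a single probe at 3 h and by the mean of both probes at 6 h.

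The comparisons with the antagonists use the same Ang II arrays as Ang II x Control, and as each other, so their values are not independent. At 3 h, the Losartan comparison called 2 of 38 repair genes (5.26%), beside 10.9% of all genes, both down-regulated. The median was -0.03, with 0.03 within scan 1 and -0.09 within scan 2. Chek2 gave 5.86, 5.09, 4.12 and 5.34 with Ang II and 5.26, 4.08, 3.93 and 5.17 with Ang II+Los, lower in each pair and most in replicate 2. The groups overlapped and the log2FC was -0.50 (SE 0.166, n = 4; limma adjusted p = 0.427), with each group above background on 3 of 4 arrays. Parp2, which senses strand breaks, had -0.43 and was lower in 3 of 4 pairs. Without replicate 2 neither was called, and 270 of all genes were. The other 36 genes ran from -1.36 to 0.29, and the lowest, Lig4, the ligase of end joining, rested on 1 array, at 1.09 in replicate 2 with Ang II+Los against 4.51, 5.97 and 5.09 in the other replicates (limma adjusted p = 0.427, not called).

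Rev3l gave 6.48, 6.43, 6.42 and 6.22 with Ang II+Los at 3 h, with a log2FC against Ang II of -0.20 (SE 0.152, n = 4; limma adjusted p = 0.52). The probe shown above had -0.48 (limma adjusted p = 0.423) and was called, and A_64_P020516 had 0.079 (0.848) and was not. The group lay within the range of the Ang II arrays. At 6 h it gave 6.44, 6.70, 6.42 and 6.75 and a log2FC of -0.13 (limma adjusted p = 1.00). Of all 42 repair genes limma called 0 in the Losartan comparison at 6 h, where it called 1.99% of all genes at the same unadjusted p under 0.05. A paired test gene by gene called 4, and its count over all genes is not reported here. The log2FC ran from -0.16 to 0.20 there, with a median of 0.01.

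In the PD123319 comparison at 3 h, limma called 0 of 38 repair genes at an unadjusted p under 0.05, beside 2.99% of all genes. The paired test gene by gene called 1, and its count over all genes is not reported here. The log2FC of the 38 genes ran from -0.25 to 0.19 with a median of -0.06. The groups of Rad50, of the complex that binds broken ends, did not overlap, at -0.24 (limma adjusted p = 1.00, not called). Rev3l gave 6.44, 6.70, 6.40 and 6.31 with Ang II+PD123319, within the range of the Ang II arrays.

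At 6 h the same comparison called 4 of 42 repair genes (9.52%), beside 6.37% of all genes, 2 up-regulated and 2 down-regulated. Ercc1, the partner of the Xpf nuclease in nucleotide excision repair, gave 12.41, 12.05, 12.85 and 11.68 with Ang II and 12.37, 11.75, 12.63 and 11.33 with Ang II+PD123319. It was lower in each pair, least in replicate 1, with a log2FC of -0.23 (SE 0.0741, n = 4; limma adjusted p = 0.617) and overlapping groups. Mad2l2 gave 5.11, 5.67, 5.27 and 5.66 with Ang II+PD123319, against the Ang II values above, higher in each pair, with a log2FC of 0.18 (SE 0.0652, n = 4; limma adjusted p = 0.675). The groups overlapped here too.

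Atm gave 3.34, 2.69, 4.03 and 4.65 in Control, 3.85, 4.27, 3.81 and 5.55 with Ang II, and 3.25, 3.78, 3.44 and 4.54 with Ang II+PD123319. Each pair was lower with the antagonist, with a log2FC of -0.62 (SE 0.255, n = 4; limma adjusted p = 0.737). Xrcc1, the scaffold of single-strand break repair, gave 11.00, 10.83, 11.04 and 10.69 with Ang II and 11.09, 11.14, 11.10 and 11.05 with Ang II+PD123319. Its groups did not overlap, and the log2FC was 0.21 (SE 0.0916, n = 4; limma adjusted p = 0.763). In Mad2l2, Atm and Ercc1 the sign was opposite to that in Ang II x Control, which shares the Ang II arrays. Ercc1 had a log2FC of 0.14 there and was not called, and Xrcc1 had the same sign in both (0.05 in Ang II x Control, not called). Rev3l gave 6.34, 6.48, 7.06 and 6.92 with Ang II+PD123319, a log2FC of -0.0065 (limma adjusted p = 0.996). Without replicate 4 none of the 42 genes was called by limma and without replicate 2, 1 was, with 449 and 725 of all genes at an unadjusted p under 0.05.

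**Figure D5:**
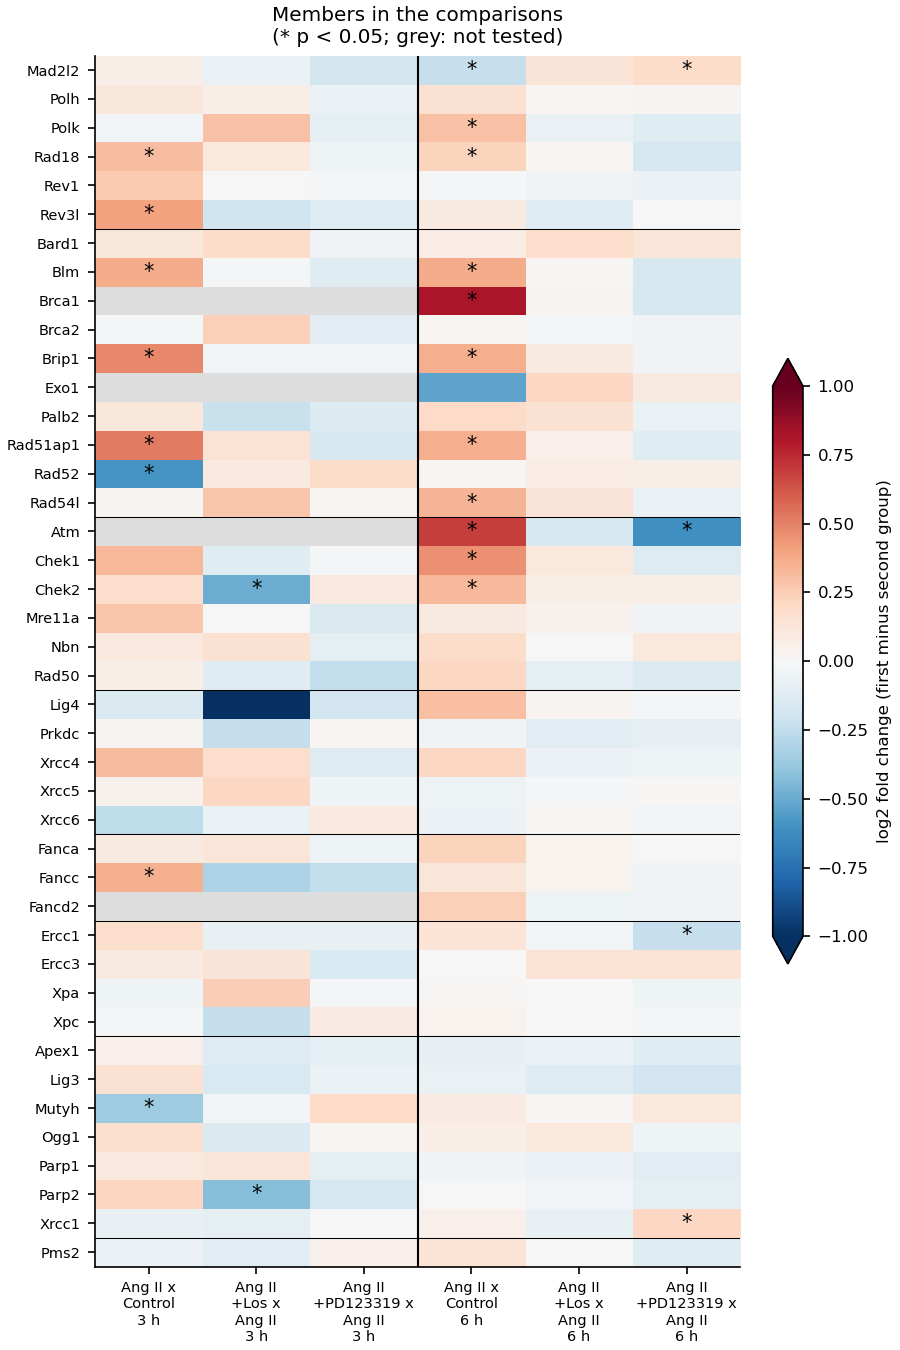
Log2 fold change of the 42 repair genes, by role, in the 6 comparisons. Stars mark an unadjusted p under 0.05, grey cells were not tested, and the colour scale ends at -1 and 1. Stars are most frequent in Ang II x Control, with 8 at 3 h and 11 at 6 h, and there is none in the PD123319 comparison at 3 h or the Losartan comparison at 6 h.

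A further 115 repair genes outside these 44 were looked up by name. In Ang II x Control at 3 h, 6 of 72 tested were up-regulated and 3 down-regulated (12.5%, beside 12.7% of all genes), with a median of 0.02. By lowest p, the up-regulated genes were led by Rpa1 (0.69), which coats single-stranded DNA, and Topbp1 (0.46), an activator of Atr, and the down-regulated ones by Dclre1a (-0.35). At 6 h, 23 of 84 were up-regulated and 6 down-regulated (34.5%, beside 21.5% of all genes), with a median of 0.09. Of the further recombination genes 11 of 21 were up-regulated and 3 down-regulated, and of the further sensing and checkpoint genes 6 of 13 were up-regulated. Fignl1 (0.59), which acts in recombination, and Shprh (0.59), a ubiquitin ligase of PCNA, led the up-regulated genes at 6 h, and Nhej1 (-0.33), an end joining factor, and Ercc5 (-0.18), a nuclease of nucleotide excision repair, the down-regulated ones. In the Losartan comparison at 3 h Usp1 (0.53) was up-regulated and 4 of 72 were down-regulated, among them Parg (-1.44), where 10.9% of all genes were called in either direction. In the PD123319 comparison at 6 h Ercc5 (0.26), Ercc6 (0.47) and Dclre1a were up-regulated and Ung (-0.26), which removes uracil, was down-regulated, where 6.37% of all genes were called. Limma called 0 of these genes in the PD123319 comparison at 3 h and in the Losartan comparison at 6 h, at the same unadjusted p.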

How the data were processed

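Total RNA of C6 cells was labelled with Cy3 and hybridized to Agilent rat arrays. Per the file headers, Feature Extraction 9.5.3.1 gave a background-subtracted processed intensity per spot. The authors deposited log2 values that equal the log2 of this intensity (561803 of 561803 within 1e-06), with 38.2% blank and no scaling between arrays.

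The scanner intensities were used here. Outlier spots were dropped, spots of a probe averaged and probes with over 2 gaps left out. At 3 h the software had written no surrogates, and 22.8% to 33.0% of spots took the signal error instead. Cyclic loess (span 0.7, 3 iterations) was run within the 16 arrays of a time interval, the remaining probes were averaged by gene, and limma 3.58.1 (R 4.3.3, data.table version 1.17.8; Python 3.11.15, matplotlib 3.10.9 for figures) was fitted to these 16 arrays with the replicate number as a block. Per their methods, the authors averaged probes, applied a Lowess step and ran t-tests, named as paired ones in the series record. The numbers pair arrays of 1 slide: in 24 of 24 pairings at each time interval the deviations correlated over 0.1 (0.147 to 0.916 at 3 h, 0.549 to 0.825 at 6 h).

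The genes, roles and lists were chosen with earlier results of these data known. Values on every array are given for Rev3l and, per comparison, for up to 4 called genes of lowest p with all 4 pairs in 1 direction. Fits were tested on simulated data. Alternatives were no block, t-tests, array weights, 75th percentile and quantile normalisation, normexp, other filters, single probes, 8 arrays alone, the deposited values and each replicate left out. Values of some further repair genes are not reported here.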

Additional observations from a re-analysis of the deposited data

Results flagged for a closer look

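In 33 groups of 4 arrays, those of the genes and comparisons given array by array, a single array was looked for whose gap to the nearest of the others exceeds the 95% critical value of Dixon's test, which chance passes in about 1 of 20 groups. It was found in 2 groups, both Ang II at 3 h. Blm in replicate 3 stood at 6.48, below 8.54, 8.37 and 8.19 in the other replicates, and Rad52 in replicate 3 stood at 7.20, above 6.02, 5.99 and 6.11. Replicate 3 was also the lowest for Blm in Control (6.45), Ang II+Los (6.43) and Ang II+PD123319 (6.60), and the highest for Rad52 in these groups (7.44, 7.10 and 7.29).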

How the results depend on the processing

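The median log2 fold change of the repair genes moved by less than the spread between replicates in all 81 recalculations. This limit was wide. The spread exceeded the median itself in the Losartan comparison (0.127 against -0.026 at 3 h, 0.061 against 0.010 at 6 h). It also did so in the PD123319 comparison at 3 h (0.128 against -0.062). There even a change of sign could count as no move. With each replicate number left out in turn it ran for Ang II x Control from 0.062 to 0.15 (3 h) and 0.090 to 0.15 (6 h), -0.11 to 0.013 and -0.018 to 0.033 in the Losartan comparison, and -0.096 to -0.022 and -0.054 to -0.033 in the PD123319 comparison. The counts of called genes were judged by another limit: 44 of the recalculated counts moved by over 1.5 times and 79 did not. Leaving out a replicate gave 1 to 9 called genes (3 h) and 6 to 15 (6 h) for Ang II x Control, 0 to 4 and 0 to 0 in the Losartan comparison, 0 to 1 and 0 to 4 in the PD123319 comparison, and 1 to 3, 0 to 5 and 0 to 1 for the differences between the time intervals in the 3 comparisons. Counts over all genes with a replicate left out are given above for part of these settings. For the others they are not reported here, so these ranges say nothing about repair genes in particular.

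The counts of called genes were lower without the replicate block. Without the replicate block Ang II x Control had counts of 1 (3 h) and 0 (6 h), with 359 and 663 of all genes, 0 in the Losartan comparison at 3 h and 0 in the PD123319 comparison at 6 h. The paired t-test gave 2 and 5 in Ang II x Control, 0 and 4 in the Losartan comparison at 3 h and 6 h, and 1 in the PD123319 comparison at 3 h, and the unpaired t-test gave 1 and 0, 0 at 3 h, and 1 and 1. At an adjusted p under 0.05 in limma all were 0. With the 8 arrays of a comparison alone, the Losartan comparison gave 1 (3 h) and 3 (6 h), and the PD123319 comparison gave 1 at 3 h. Scaling to the 75th percentile gave 4 in the Losartan comparison at 3 h and 2 in the PD123319 comparison at 6 h, the stricter filter gave 1 in the former, and no filter gave 1 in the Losartan comparison at 6 h. The deposited values, complete for 26 of the 42 genes, gave 0 in the PD123319 comparison at 6 h, and a fold change above 1.2 or below 0.8 gave 1. With all 32 arrays normalised together, 1 gene differed between the time intervals in that comparison. The cause of these differences was not tested. The share of all genes called with the t-tests, 8 arrays alone, scaling, filters, deposited values or fold limit is not reported here. Those counts therefore say nothing about repair genes in particular.

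Of the recalculated values of named genes, 311 kept direction and call, 133 kept the direction and lost the call, 1 gained it and 9 changed sign, 8 of them for Rev3l. Rev3l changed sign with probe A_64_P020516 in the Losartan comparison at 3 h (0.079) and in both 6 h comparisons with a value near 0, Ang II x Control (-0.10) and the PD123319 comparison (0.023). It did so with array weights in the PD123319 comparison at 3 h (0.0071), with normexp in the 6 h values of Ang II x Control (-0.018), and in the PD123319 comparison at 6 h with the 75th percentile (0.032) and without replicate 1 or without replicate 2 (range over the replicates left out, -0.080 to 0.052). Polk at 6 h changed sign with probe A_64_P162875 (-0.0067). Brca1, Atm, Exo1 and Xrcc2 lay near the background on part of the arrays, which limits their values.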
